A study of Homo sapiens with 8 samples.

Results

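The mitochondrial ribosome is the machine that translates the few messenger RNAs of the mitochondrial genome, which encode core subunits of the respiratory chain. Its large subunit holds the peptidyl transferase centre, the stalk that recruits elongation factors and the tunnel through which a nascent protein leaves, and most of its proteins are encoded in the nucleus by genes named MRPL. Some of these proteins have bacterial counterparts, and others are found in mitochondrial ribosomes only. The MRPL genes were taken from a pooled CRISPRi growth screen as all gene symbols that start with MRPL and a digit, with sgRNAs to the first or the joint promoter and a mean count of at least 20. This gave 47 genes of 18903 tested, with 239 sgRNAs.

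The screen used K562, a human leukaemia line grown as lymphoblast cells, that carried dCas9-KRAB, a catalytically dead Cas9 fused to a transcriptional repressor, with a stable transgene for uL16, wild-type or mutant. uL16 is a protein of the cytosolic large ribosomal subunit, and the study asked which factors act on defective large subunits. The 4 groups were wild-type day 0, wild-type day 9, mutant day 0 and mutant day 9, with 2 libraries each. All groups carried the repressor and the genome-wide library. Transduced cells were kept in puromycin (1 µg/ml) for 3 days, and the screen as a whole is described as running for 10 cell doublings, with day 9 as its end in the labels. The sample titles call the mutant line delta. The sources used here do not say which mutation this is, which promoter drives uL16 or whether a line is 1 clone. The labels do not say that replicates were separate cultures, so p-values measure the spread between these libraries, which may be technical.

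Library totals ranged from 39233340 to 143585751 reads, and non-targeting control sgRNAs took 1.76 to 1.84% of each library. Of 470 first-promoter sgRNA names for MRPL genes, 231 were at 0 throughout, and 239 were kept. Of all 209070 sgRNA names, 102987 targeting and 1894 control sgRNAs were kept. Each gene had 5 kept sgRNAs, apart from MRPL30 and MRPL51 with 6 and MRPL9 with 7. Mean counts of the kept sgRNAs ran from 37.9 to 1874.5 with a median of 519. An sgRNA that slows growth or kills is lost from the population, so a fall in its share of reads from day 0 to day 9 is the readout. The screen reads growth and not the amount of any MRPL transcript.

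CRISPRi represses transcription near the start of a gene, so the stretches just upstream of some starts are shown first. They are the 120 bases before the RefSeq start of the 3 genes with the largest falls in wild-type cells (MRPL22, MRPL33 and MRPL3) and of MRPL47 and MRPL45, which did not pass the test, followed by the 201 bases between the divergent starts of MRPL32 and PSMA2. Capitals mark a match to 1 of 4 motifs searched on both strands, CCGGAAG (ETS-type) or GCGCATGC (NRF1-type) here. All are from GRCh38.p14, 5′ to 3′ on the strand of the MRPL gene. The MRPL22 stretch is chr5:154940953-154941072 on the plus strand, MRPL33 is chr2:27771599-27771718 on the plus strand, and MRPL3 is chr3:131502972-131503091 on the minus strand. The MRPL47 stretch is chr3:179604639-179604758 on the minus strand, MRPL45 is chr17:38297048-38297167 on the plus strand, and the MRPL32 stretch is chr7:42932175-42932375 on the plus strand.
MRPL22: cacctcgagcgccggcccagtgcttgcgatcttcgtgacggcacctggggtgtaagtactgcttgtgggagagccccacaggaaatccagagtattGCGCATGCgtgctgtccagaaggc
MRPL33: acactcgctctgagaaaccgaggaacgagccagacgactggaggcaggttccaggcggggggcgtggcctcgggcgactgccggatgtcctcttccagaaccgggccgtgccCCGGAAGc
MRPL3: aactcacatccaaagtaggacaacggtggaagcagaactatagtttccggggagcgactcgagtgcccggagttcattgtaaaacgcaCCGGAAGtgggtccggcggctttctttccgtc
MRPL47: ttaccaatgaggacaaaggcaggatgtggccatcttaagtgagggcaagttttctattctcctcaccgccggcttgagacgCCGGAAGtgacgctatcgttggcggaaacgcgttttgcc
MRPL45: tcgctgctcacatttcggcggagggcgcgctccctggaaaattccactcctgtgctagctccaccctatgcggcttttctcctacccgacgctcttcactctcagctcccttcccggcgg
MRPL32 to PSMA2: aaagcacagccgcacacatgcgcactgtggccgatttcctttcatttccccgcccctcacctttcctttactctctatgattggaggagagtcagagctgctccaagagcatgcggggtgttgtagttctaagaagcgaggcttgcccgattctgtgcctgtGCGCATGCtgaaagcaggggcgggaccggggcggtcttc

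RefSeq windows of 250 bases before to 50 after the start were matched for 40 of the 47 genes. MRPL2, MRPL10, MRPL13, MRPL15, MRPL21, MRPL23 and MRPL35 were not matched. The ETS-type motif CCGGAAG was in the windows of 17 of 40 MRPL genes (42.5%), against 16.8% of 13958 matched genes of the library. Counted by single window, it was in 18 of 50 MRPL windows, against 3603 of all 35116 windows (10.3%) in the RefSeq table. By gene, the YY1-type motif AAGATGGCG was in 8 (20.0%) against 3.4% of library genes, and the NRF1-type motif GCGCATGC was in 4 (10.0%) against 4.9%. The E-box CACGTG was in 6 (15%) against 11%, and 12 of the 40 genes held none of the motifs in any window. NRF1, ETS proteins such as GABP and YY1 are known regulators of nuclear genes for mitochondrial proteins. Genes with and without the ETS-type motif had median log2 changes of -0.76 and -1.12 in wild-type cells. The medians with and without the NRF1-type motif were -1.28 and -1.0, those for the YY1-type motif were -1.18 and -0.93, and both were -1.0 for the E-box. The ETS-type motif was present upstream of MRPL33 and MRPL3, which fell, and of MRPL47, which did not pass the test. A match is a description of letters and not of binding.

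The sgRNAs to most MRPL genes were depleted in both lines. In wild-type cells 41 of 47 genes fell from day 0 to day 9 at an adjusted p under 0.05 (edgeR quasi-likelihood, Benjamini-Hochberg over all genes) and 0 rose, where 8.7% of all genes tested fell. In mutant cells 40 fell and 0 rose, where 8.53% of all genes fell. The median log2 change over the 47 genes was -0.94 in wild-type and -0.86 in mutant cells, against 0.01 over all genes in either line. Both day 9 libraries lay below both day 0 libraries for 44 MRPL genes in wild-type cells and 42 in mutant cells, which was so for 23.7% and 24.2% of all genes. A fall of more than 1 on the log2 scale was called for 23 MRPL genes in each line, against 593 genes (3.14%) in wild-type and 597 (3.16%) in mutant cells among all tested.

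The same sum can be read off the libraries directly. MRPL sgRNAs took 0.2176% and 0.2245% of reads in the wild-type day 0 libraries and 0.1211% and 0.1295% in the wild-type day 9 libraries. In mutant cells they took 0.2188% and 0.2213% at day 0 and 0.1314% and 0.1291% at day 9. The day 9 libraries of both lines lay below all day 0 libraries. The plot of changes by gene orders the 47 genes by their change in wild-type cells.

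**Figure D1:**
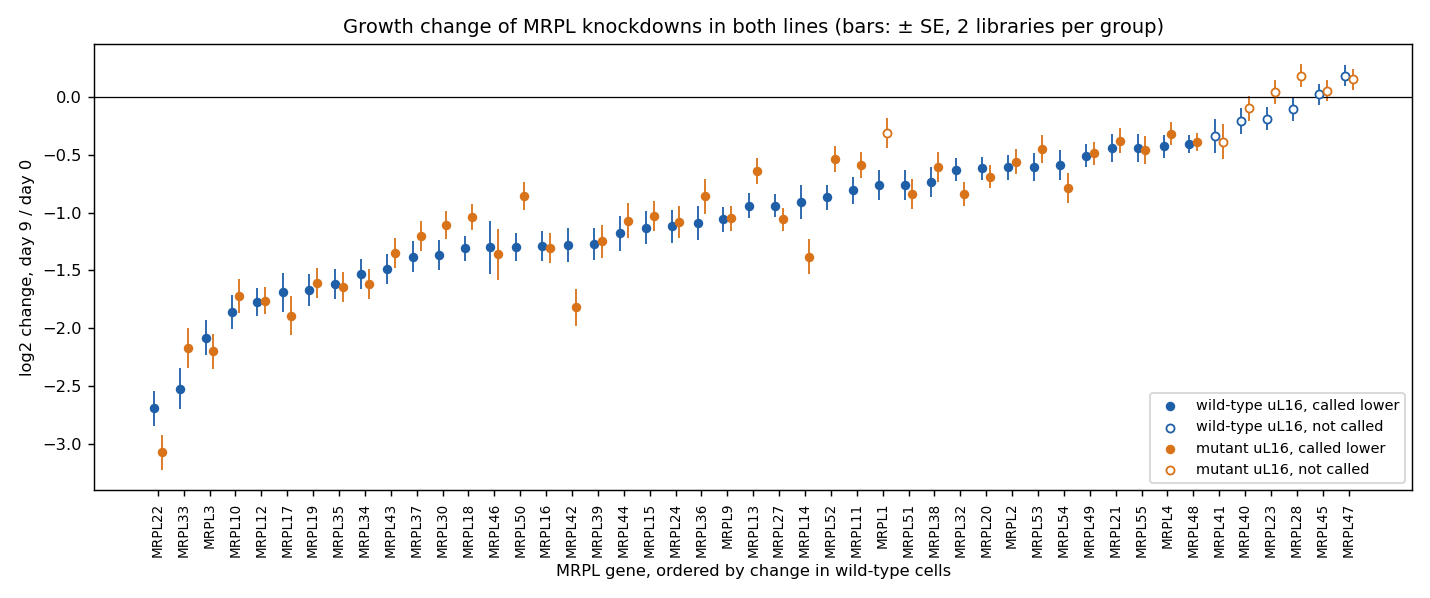
Log2 change from day 0 to day 9 of the summed sgRNA counts of each of 47 MRPL genes (x axis, ordered by the change in wild-type cells), in wild-type (blue) and mutant (orange) uL16 cells, with bars of ± SE from the edgeR fit and 2 libraries per group. Filled points passed an adjusted p under 0.05. The genes form a continuous range from -2.69 for MRPL22 to 0.18 for MRPL47 in wild-type cells, and the open points lie at the right end apart from MRPL1 in mutant cells.

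The 3 largest falls in wild-type cells were those of MRPL22, MRPL33 and MRPL3. MRPL22 (uL22m) lines the exit tunnel. Its summed sgRNAs were at 49.6 and 47.6 CPM (counts scaled to a common library size) at day 0 and at 8.02 and 7.03 at day 9 in wild-type cells, and at 47.7 and 50.0 and then 5.31 and 6.23 in mutant cells. The day 9 libraries were 6.46-fold lower in wild-type and 8.38-fold lower in mutant cells, with no overlap, and the log2 changes were -2.69 ± 0.15 (SE, adjusted p = 7.53e-15) and -3.07 ± 0.15 (adjusted p = 4.87e-16) by edgeR. MRPL33 (bL33m) is among the smallest proteins of the subunit. It was at 32.9 and 30.7 CPM at day 0 and 5.95 and 5.16 at day 9 in wild-type cells, and at 39.5 and 37.0 and then 7.62 and 9.29 in mutant cells. Its log2 changes were -2.52 ± 0.18 (SE, adjusted p = 1.21e-12) and -2.17 ± 0.17 (adjusted p = 1.18e-11) by edgeR, with day 9 below day 0 in every library of both lines.

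MRPL3 (uL3m) reaches from the surface of the subunit towards the peptidyl transferase centre. It was at 47.4 and 46.4 CPM at day 0 and at 9.77 and 12.4 at day 9 in wild-type cells, and at 47.8 and 50.4 and then 9.66 and 11.6 in mutant cells. The change was -2.08 ± 0.15 (SE, adjusted p = 1.12e-12) in wild-type and -2.20 ± 0.15 (adjusted p = 2.54e-13) in mutant cells by edgeR. The next in order in wild-type cells were MRPL10 (-1.86), MRPL12 (-1.77), MRPL17 (-1.69), MRPL19 (-1.67) and MRPL35 (-1.62). Of the 8 largest falls, 7 were the same genes in both lines. MRPL42 was among the 8 in mutant cells (-1.82) and MRPL19 in wild-type cells. From MRPL10 to MRPL35, neighbours in this order differed by less than their SEs.

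**Figure D2:**
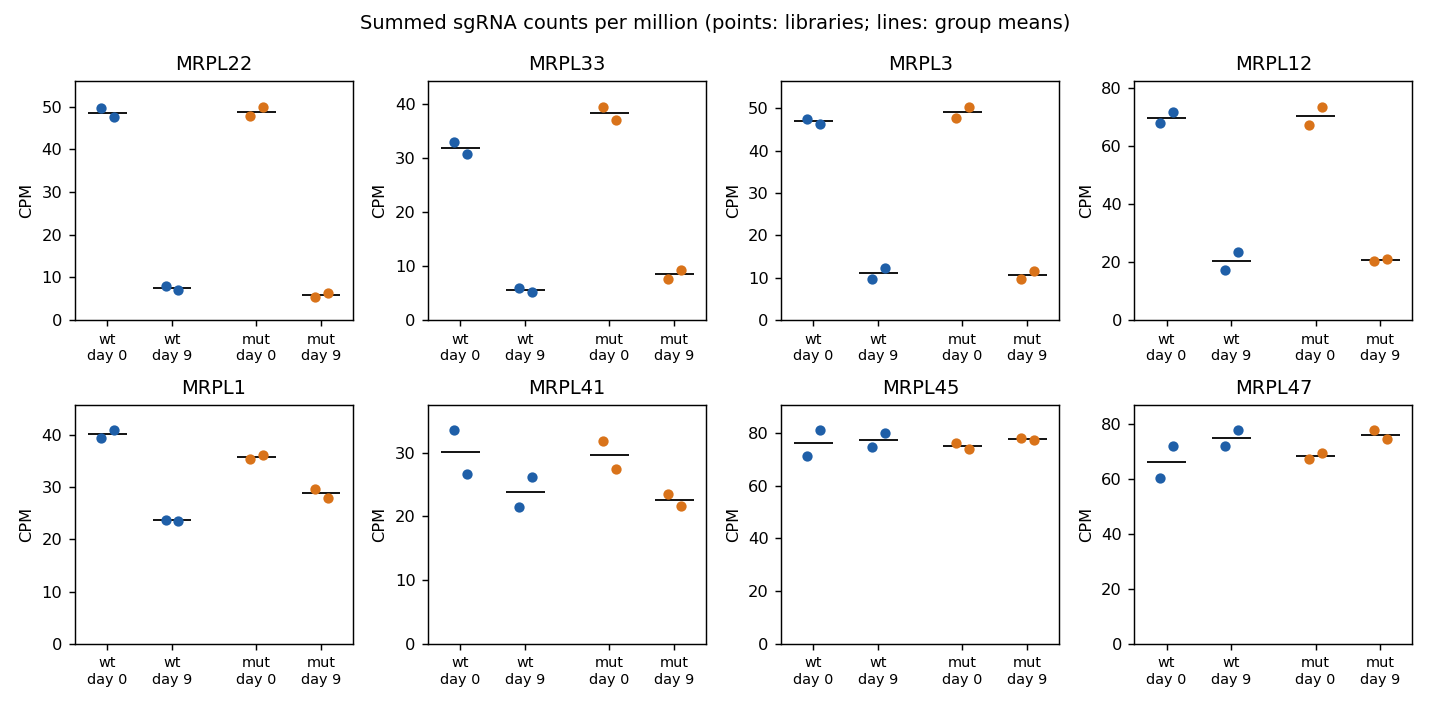
Summed sgRNA counts in CPM (y axis, from 0) of 8 MRPL genes in each of the 8 libraries, with the line and day on the x axis; points are libraries and lines are means of 2. MRPL22, MRPL33, MRPL3 and MRPL12 lie far lower at day 9 in both lines, MRPL1 drops further in wild-type than in mutant cells, and the wild-type day 0 and day 9 libraries of MRPL45 overlap.

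The bacterial-type proteins, 30 of the 47, fell in 27 cases in wild-type and 26 in mutant cells, with median log2 changes of -1.08 and -1.04. Among the 17 mitochondria-specific proteins 14 fell in each line, with medians of -0.76 and -0.79. No test of the difference between these classes was made. The largest falls among the mitochondria-specific proteins in wild-type cells were those of MRPL43 (-1.49), MRPL37 (-1.38), MRPL46 (-1.30) and MRPL50 (-1.30). The 3 largest falls of all 47 were bacterial-type. The class of each gene was taken from the list and matched the unified name in RefSeq for all 47.

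The stalk carries the factor-binding arm of the large subunit and recruits the elongation factors. All 5 genes of the stalk and its base fell in both lines. MRPL10 (uL10m), the protein that anchors the stalk, changed by -1.86 ± 0.15 (SE) and -1.72 ± 0.15 in wild-type and mutant cells. It was at 38.1 and 41.7 CPM at day 0 and at 10.7 and 11.2 at day 9 in wild-type cells. MRPL12 (bL12m), the repeated protein of the arm, changed by -1.77 ± 0.12 and -1.76 ± 0.12. MRPL11 (uL11m), at the stalk base, changed by -0.81 and -0.59, and MRPL53 and MRPL54 by -0.61 and -0.59 in wild-type cells. The day 0 and day 9 libraries of each of the 5 did not overlap in either line. Day 9 lay below day 0 without overlap for 23.7% of all genes in wild-type and 24.2% in mutant cells.

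The proteins listed near the peptidyl transferase centre were MRPL2, MRPL3, MRPL4 and MRPL16, and all 4 fell in both lines. MRPL16 is uL16m, the mitochondrial counterpart of the cytosolic protein that the lines express. It was at 43.3 and 45.6 CPM at day 0 and at 18.7 and 17.7 at day 9 in wild-type cells, and at 42.5 and 44.7 and then 16.4 and 18.7 in mutant cells. Its changes of -1.29 ± 0.13 (SE, adjusted p = 3.57e-09) and -1.31 ± 0.13 (adjusted p = 2.04e-09) by edgeR differed by -0.02, with a 95% interval of -0.40 to 0.36. MRPL2 (uL2m) changed by -0.61 and -0.56. MRPL4 (uL4m), which reaches into the tunnel wall, changed by -0.43 (edgeR adjusted p = 0.00307) and -0.32 (adjusted p = 0.0393). The MRPL4 call was lost in wild-type cells without wild-type day 0 replicate 2 (adjusted p = 0.0949). In mutant cells it was lost without any 1 of wild-type day 0 replicates 1 and 2, mutant day 0 replicates 1 and 2 and mutant day 9 replicate 1, with adjusted p from 0.0613 to 0.355.

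The tunnel exit group was the most divided. Of 8 genes, MRPL22, MRPL17, MRPL39, MRPL44 and MRPL24 fell in both lines, and MRPL23, MRPL45 and MRPL47 passed in neither. MRPL17 (bL17m) was at 40.0 and 44.0 CPM at day 0 and at 9.91 and 16.0 at day 9 in wild-type cells, and changed by -1.69 ± 0.17 (SE) there and by -1.89 ± 0.17 in mutant cells. MRPL39, which is related to a tRNA synthetase, changed by -1.27 and -1.25, and MRPL44, a protein with a ribonuclease III-like fold, by -1.18 and -1.07. MRPL24 (uL24m) changed by -1.12 and -1.08. The median of the 8 was -1.15 in wild-type and -1.07 in mutant cells.

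The central protuberance faces the small subunit and contacts the tRNAs. Of its 8 listed genes 7 fell in each line, MRPL40 being the exception, with medians of -0.81 in wild-type and -0.58 in mutant cells. MRPL18 (uL18m), which in bacteria binds the 5S rRNA, changed by -1.31 ± 0.11 (SE) and -1.04 ± 0.11, and MRPL46 by -1.30 ± 0.23 and -1.36 ± 0.22. MRPL27 (bL27m) changed by -0.94 and -1.06, and MRPL52 by -0.87 and -0.54. Without its most abundant sgRNA, MRPL52 changed by -0.27 in mutant cells and was not called (edgeR adjusted p = 0.25). On the L1 side, MRPL9 (bL9m) changed by -1.06 ± 0.11 and -1.05 ± 0.11. MRPL1 (uL1m), the protein of the mobile L1 stalk that guides the tRNA out, fell in wild-type cells only by the test.

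The bacterial-type proteins outside these groups ranged as widely. MRPL19 (bL19m), at the face between the subunits, was at 43.0 and 48.0 CPM at day 0 and 14.6 and 14.0 at day 9 in wild-type cells and changed by -1.67 ± 0.14 (SE) and -1.61 ± 0.13. MRPL35 changed by -1.62 and -1.64, MRPL34 by -1.53 and -1.62 and MRPL30 by -1.37 and -1.11. MRPL15 changed by -1.13 and -1.03, MRPL36 by -1.09 and -0.86, MRPL13 by -0.94 and -0.64 and MRPL20 by -0.62 and -0.69. All of these fell in both lines without overlap between day 0 and day 9 libraries. Such a fall without overlap was seen for 23.7% of all genes in wild-type and 24.2% in mutant cells. MRPL28, also bacterial-type and outside these groups, changed by -0.11 and 0.18 and passed in neither line.

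Several calls of genes with small changes rested on single libraries. In wild-type cells MRPL21 (-0.44) and MRPL54 (-0.59) were no longer called without wild-type day 0 replicate 1 (edgeR adjusted p = 0.209 and 0.0772). MRPL48 (-0.41) and MRPL55 (-0.44) were not called without wild-type day 0 replicate 2 (adjusted p = 0.0504 and 0.244), nor MRPL55 without wild-type day 9 replicate 1 (adjusted p = 0.0628). In mutant cells MRPL21 (-0.38) was lost without either mutant day 0 replicate or mutant day 9 replicate 1, with edgeR adjusted p from 0.0937 to 0.366. MRPL53 (-0.45) was lost without mutant day 0 replicate 2 (adjusted p = 0.152) or mutant day 9 replicate 1 (adjusted p = 0.105). MRPL55 (-0.46) was lost without mutant day 0 replicate 1 (adjusted p = 0.0992) or mutant day 9 replicate 2 (adjusted p = 0.187), MRPL38 (-0.61) without mutant day 9 replicate 2 (adjusted p = 0.112) and MRPL49 (-0.49) without mutant day 0 replicate 1 (adjusted p = 0.106). Without their most abundant sgRNA, MRPL49 was not called in wild-type (-0.31, edgeR adjusted p = 0.132) or mutant cells (-0.30, adjusted p = 0.178), nor MRPL21 in mutant cells (-0.38, adjusted p = 0.117). All of these genes kept a negative change in those fits.

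MRPL1 was at 39.5 and 40.9 CPM at day 0 and at 23.8 and 23.6 at day 9 in wild-type cells, a change of -0.76 ± 0.13 (SE, edgeR adjusted p = 2.64e-05). In mutant cells it was at 35.4 and 36.1 CPM at day 0 and at 29.7 and 27.9 at day 9. Its change of -0.31 ± 0.13 there did not pass (edgeR adjusted p = 0.144). The libraries did not overlap, with day 9 lower, which was so for 24.2% of all genes in mutant cells. The difference of the changes was 0.45 with a 95% interval of 0.09 to 0.81 and an adjusted p of 0.883 by edgeR. Its most abundant sgRNA, at 11.9 and 16.0 CPM at day 0 in wild-type cells, changed by -0.18 and 0.42 in the lines, while 3 others were called lower in wild-type and 2 in mutant cells. Without the most abundant sgRNA the change in mutant cells was -1.05 (edgeR adjusted p = 6.74e-05). DESeq2 on the same sums (adjusted p = 0.014) and limma on the average of the log2 CPM of its sgRNAs (adjusted p = 0.00266) also called it lower.

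Apart from MRPL1, 6 genes did not pass in either line. MRPL47 (uL29m), at the tunnel exit, was at 60.2 and 72.0 CPM at day 0 and at 71.8 and 77.6 at day 9 in wild-type cells, with changes of 0.18 ± 0.09 (SE) and 0.15 ± 0.09. MRPL45, which tethers the ribosome to the inner membrane, was at 71.2 and 81.1 CPM and then 74.6 and 79.9, with changes of 0.02 ± 0.09 and 0.05 ± 0.09. The day 0 and day 9 libraries of both genes overlapped in wild-type cells. In mutant cells MRPL47 was at 67.1 and 69.3 CPM at day 0 and at 77.6 and 74.3 at day 9. MRPL45 was at 76.1 and 74.1 CPM and then 78.1 and 77.6 in these cells. Both genes lay higher at day 9 there without overlap, and so did MRPL28, but none of these was called. The share of all genes that lay higher at day 9 without overlap is not given here. MRPL28 (bL28m) had changes of -0.11 ± 0.10 and 0.18 ± 0.10, and MRPL23 (uL23m), a docking protein at the tunnel exit, of -0.19 ± 0.10 and 0.04 ± 0.10. MRPL40 had changes of -0.21 ± 0.11 and -0.10 ± 0.11. The edgeR adjusted p of these 5 genes ran from 0.29 to 0.936 in wild-type cells and from 0.383 to 0.892 in mutant cells. A p above the threshold does not show that growth was unaffected, and the amount of each transcript was not measured.

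MRPL41 was the nearest to passing. It was at 33.5 and 26.7 CPM at day 0 and at 21.5 and 26.1 at day 9 in wild-type cells, and at 31.9 and 27.4 and then 23.5 and 21.6 in mutant cells. The changes were -0.34 ± 0.15 (SE, edgeR adjusted p = 0.205) and -0.39 ± 0.15 (adjusted p = 0.127). Its sgRNAs fell apart into 2 that were lost, at -2.25 and -1.61 in wild-type and -1.62 and -2.27 in mutant cells, and 3 between 0.07 and 0.68 in wild-type cells. Limma on the average of the log2 CPM of its sgRNAs, which gives each sgRNA the same weight, called it lower in wild-type (-0.59, adjusted p = 0.0364) and mutant cells (-0.74, adjusted p = 0.00807), and edgeR without its most abundant sgRNA did so in mutant cells (adjusted p = 0.0152).

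Single sgRNAs of 1 gene share a target and are not replicates, and they differed widely. In wild-type cells 131 of 239 MRPL sgRNAs (54.8%) were called lower, where 5.2% of all targeting sgRNAs and 11 of 1894 control sgRNAs (0.581%) were. In mutant cells 124 (51.9%) were called lower, where 5.09% of targeting and 10 of 1894 control sgRNAs (0.528%) were. These shares of all targeting sgRNAs include second-promoter sgRNAs, while the 239 are first-promoter sgRNAs only. No MRPL sgRNA was called higher in either line. A negative change, called or not, was seen for 201 sgRNAs in wild-type and 196 in mutant cells, and the share over all targeting sgRNAs is not given here. The changes ran from -4.09 to 0.92 in wild-type and from -4.92 to 0.46 in mutant cells, while control sgRNAs had SDs of 0.37 and 0.35.

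**Figure D3:**
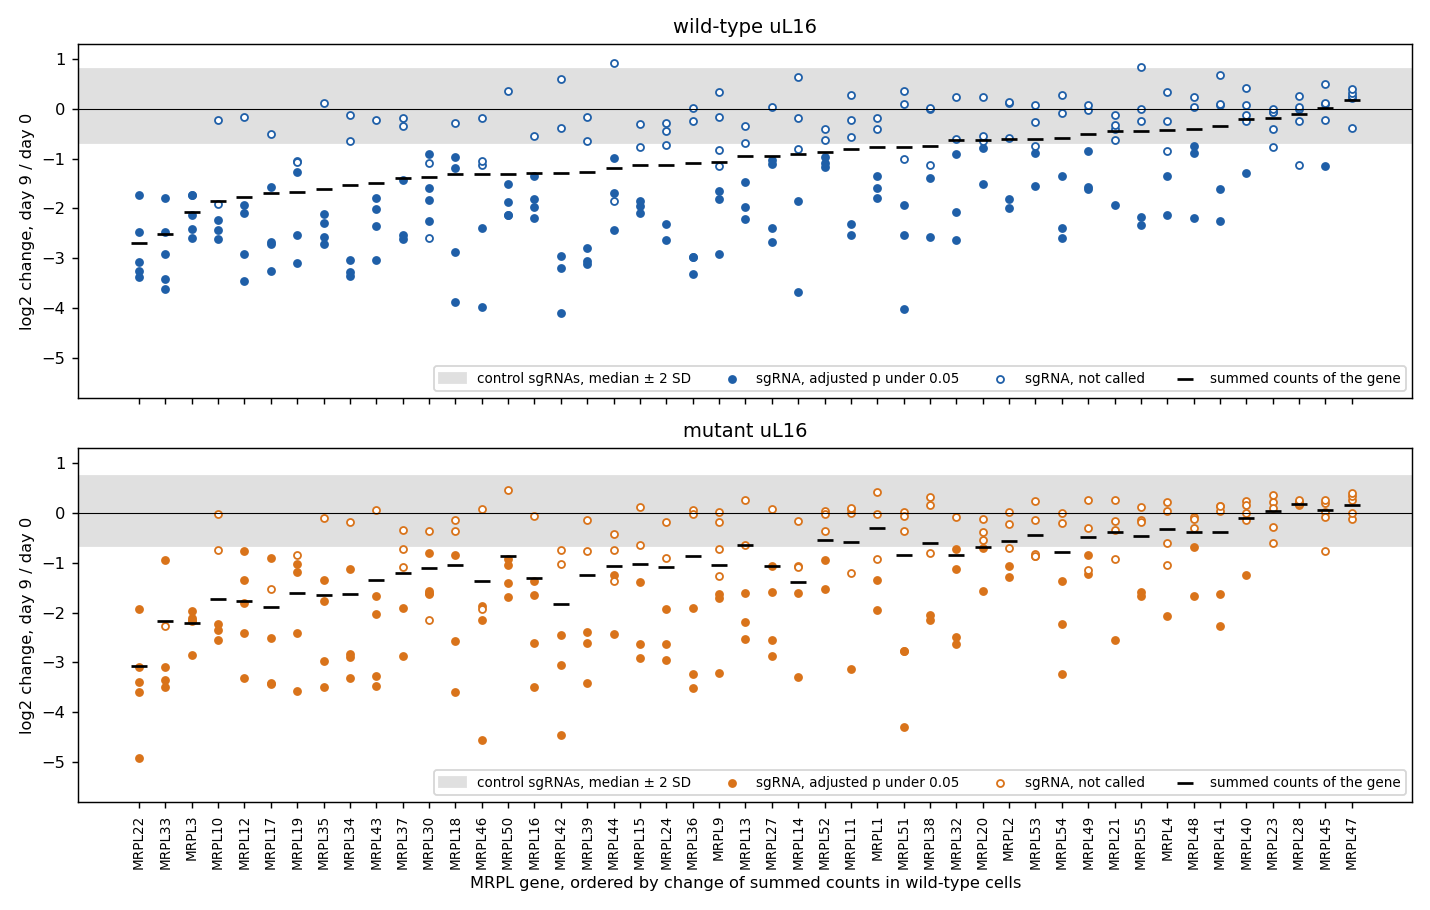
Log2 change from day 0 to day 9 of each of 239 MRPL sgRNAs (points; filled where the adjusted p was under 0.05), by gene in the order of the summed change in wild-type cells, for wild-type (top) and mutant (bottom) uL16 cells. The black dash is the gene's summed counts and the grey band is the median ± 2 SD of 1894 control sgRNAs; most genes hold points far below the band and at least 1 point within or close to it.

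The median SD of sgRNA changes within a gene was 1.03 in wild-type cells, and the median range from the lowest to the highest was 2.43. The strongest sgRNA of each gene had a median change of -2.60, against -0.36 for the strongest of all genes, and the weakest had a median of 0.01. At least 1 sgRNA was called lower for 44 genes in wild-type and 42 in mutant cells. MRPL23, MRPL28 and MRPL47 had none in wild-type cells, and MRPL45 and MRPL53 in addition had none in mutant cells. All sgRNAs were called lower for MRPL3, MRPL22 and MRPL33 in wild-type cells and for MRPL3, MRPL12 and MRPL22 in mutant cells. The shares of all genes with at least 1 sgRNA, or with all sgRNAs, called lower are not given here, so these counts have no background. In wild-type cells the 5 sgRNAs of MRPL22 lay between -3.38 and -1.73, those of MRPL33 between -3.62 and -1.80 and those of MRPL3 between -2.60 and -1.73.

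In wild-type cells the range of sgRNA changes was widest for MRPL42, MRPL51, MRPL14 and MRPL46. MRPL42 had 3 sgRNAs with log2 changes of -4.09, -3.19 and -2.95 in wild-type cells, all called, and 2 that were not called, at -0.39 and 0.59. The strongest went from 11.7 and 10.3 CPM at day 0 to 0.463 and 0.823 at day 9, and the weakest from 4.00 and 5.71 to 7.27 and 7.29. In the same cells MRPL51 had sgRNAs from -4.01 to 0.36, MRPL14 from -3.68 to 0.63 and MRPL46 from -3.98 to -0.18. Summed values of such genes lie between sgRNAs that were lost and sgRNAs that stayed, and they depend on how abundant each was at day 0.

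Strand and position of the sgRNAs were set beside their changes. For the 40 genes with a strand in RefSeq, 82 sgRNAs on the strand of the gene had median changes of -1.21 in wild-type and -1.20 in mutant cells, and 122 on the opposite strand had medians of -1.15 and -1.0. The sgRNA farthest downstream of each gene had a median of -0.24 in wild-type and -0.19 in mutant cells over 40 sgRNAs. The sgRNA farthest upstream had medians of -1.32 and -1.10, and the 124 in between had medians of -1.57 and -1.39. The sgRNAs of a gene spanned a median of 387 bases, from 54 to 723. These are descriptions over sgRNAs that share genes, with no test.

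Many MRPL genes lie beside another gene, where a repressor can reach both starts. A library gene read in the opposite direction started within 1 kb for 12 of 40 matched MRPL genes (30.0%), against 1531 of 13958 library genes (11%). For 18 MRPL genes an sgRNA lay within 1 kb of an sgRNA of another gene, and 16 of these fell in each line, with medians of -0.94 and -0.95. Of the other 29, 25 fell in wild-type and 24 in mutant cells, with medians of -1.09 and -0.86. Of 17 neighbours tested, 8 fell in wild-type and 7 in mutant cells, beside 8.7% and 8.53% of all genes. The sums of SLC25A10, C2orf15, FAU and NCAPD2, which fell in both lines, and of PSMA2, which fell in wild-type cells, include sgRNAs that are also listed under the MRPL gene. No test of genes with against genes without a neighbour was made.

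Some neighbours fell with their MRPL gene. MRPS11, a small subunit protein gene whose start lies 320 bases from that of MRPL46, changed by -2.64 ± 0.16 (SE) and -2.56 ± 0.16, further than MRPL46 itself. TCP1, a subunit of the cytosolic chaperonin and divergent to MRPL18, changed by -1.01 ± 0.15 and -0.60 ± 0.14. FAU, which encodes a cytosolic small ribosomal protein, changed by -1.0 and -0.87 beside MRPL49 at -0.51 and -0.49. NCAPD2, a condensin subunit beside MRPL51, changed by -0.61 and -0.48. For these pairs the loss of 1 gene cannot be told apart from that of the other by growth.

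Other neighbours had no call while the MRPL gene fell. LRRC46 changed by -0.04 and 0.04 beside MRPL10. TMEM63B changed by 0.22 and 0.05 beside MRPL14, EME1 by -0.08 and -0.08 beside MRPL27 and CYB5RL by 0.17 and -0.13 beside MRPL37. KLC4 (-0.11 and 0.06, beside MRPL2), IGHMBP2 (-0.09 and -0.11, beside MRPL21), ZNF189 (-0.29 and -0.03, beside MRPL50) and MITD1 (0.07 and -0.07, beside MRPL30) were not called either. MTBP, beside MRPL13, was called in wild-type cells (-0.50, edgeR adjusted p = 0.0222) and not in mutant cells (-0.43, adjusted p = 0.0586). NDUFB5, a respiratory complex I subunit beside MRPL47, changed by -0.05 and -0.37 and was called in mutant cells (edgeR adjusted p = 0.0151).

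In 6 genes some sgRNAs were listed under a second gene as well, with the same counts, 16 sgRNAs in all. MRPL12 shared 4 of 5 with SLC25A10, a mitochondrial dicarboxylate carrier gene, and the 2 had nearly the same change (-1.77 for both in wild-type cells). MRPL30 shared 4 of 6 with C2orf15, and MRPL9 4 of 7 with a second-promoter set of OAZ3. MRPL51 shared 2 with NCAPD2, MRPL32 shared 1 with PSMA2, a proteasome subunit gene, and MRPL49 shared 1 with FAU. The 1 unshared sgRNA of MRPL12 changed by -2.92 and -2.42 and was called in both lines. The median sgRNA positions of MRPL12 and SLC25A10 lay 2 bases apart, so the loss of these genes cannot be told apart by growth.

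Without the shared sgRNAs MRPL9 changed by -1.87 ± 0.26 (SE) and -1.93 ± 0.26, and MRPL51 by -1.45 ± 0.22 and -2.24 ± 0.23, against -0.76 and -0.84 with them. MRPL32 changed by -0.63 and -0.87. The call of MRPL49 was lost (-0.33, edgeR adjusted p = 0.11, and -0.31, adjusted p = 0.151). MRPL12 and MRPL30 had too few sgRNAs left to be tested. MRPL30 has a second promoter in the library, whose 7 sgRNAs are all listed under LIPT1 as well, and their sum changed by -0.05 (edgeR adjusted p = 0.8) in wild-type and -0.17 (adjusted p = 0.226) in mutant cells, while the first-promoter set changed by -1.37 ± 0.13 and -1.11 ± 0.12.

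A factor that acts on defective subunits would be sought in a difference between the lines. For MRPL genes the difference of the changes, mutant minus wild-type, was called for 0 of 47 genes by edgeR, where 0.0159% of all genes (3) were called, and for 0 by DESeq2. The median difference was 0.04, the range -0.55 to 0.45, and the smallest adjusted p was 0.883. At an unadjusted p under 0.05 there were 5 MRPL genes (10.6%), against 5.57% of all genes. All 47 of the 95% intervals lay within 1 on the log2 scale of 0, and 24 lay within 0.5. Over the 47 genes the changes in the 2 lines had a Pearson r of 0.952 and a Spearman rho of 0.932. The points are genes from the same 8 libraries, so this is a description. None of the 239 sgRNAs was called in the difference, where 0% of all targeting sgRNAs were, and 23 had an unadjusted p under 0.05. The share of all targeting sgRNAs at that unadjusted level is not given here, so the 23 have no background.

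**Figure D4:**
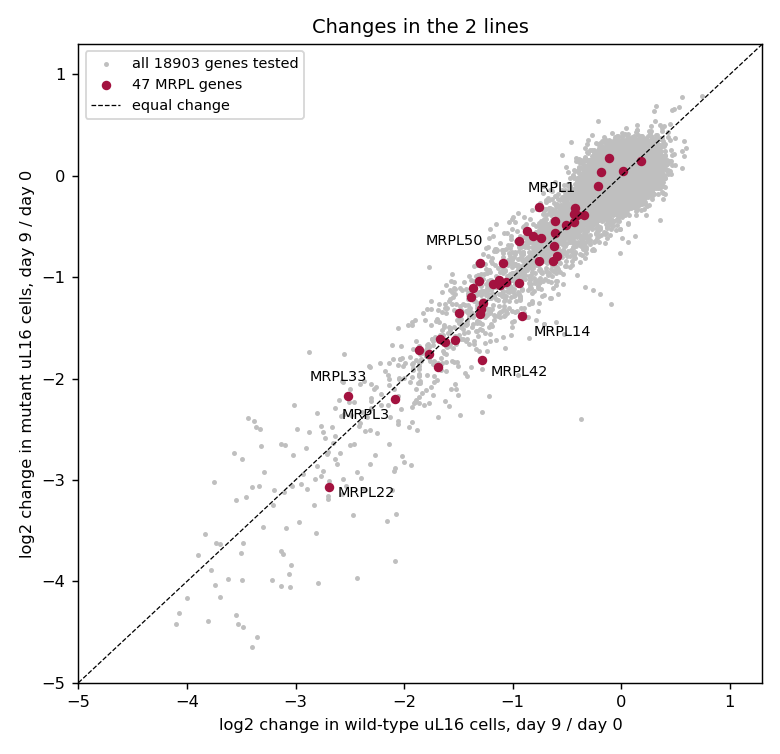
Log2 change from day 0 to day 9 in wild-type (x axis) and mutant (y axis) uL16 cells for 47 MRPL genes (red) and all 18903 genes tested (grey), with a dashed line of equal change. The MRPL genes spread along the line from -2.69 and -3.07 for MRPL22 to 0.18 and 0.15 for MRPL47, and the differences from it lie between -0.55 (MRPL42) and 0.45 (MRPL50 and MRPL1).

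The 5 largest differences towards a smaller fall in mutant cells were MRPL50 (0.45, 95% interval 0.10 to 0.79), MRPL1 (0.45), MRPL33 (0.35), MRPL52 (0.33) and MRPL13 (0.30). MRPL50 was at 54.3 and 54.1 CPM at day 0 and 24.0 and 19.9 at day 9 in wild-type cells, and at 53.6 and 49.5 and then 29.4 and 27.5 in mutant cells. The day 9 libraries of mutant cells lay above those of wild-type cells, and those of day 0 below. The 5 largest towards a greater fall in mutant cells were MRPL42 (-0.55, 95% interval -0.99 to -0.11), MRPL14 (-0.46), MRPL22 (-0.38), MRPL32 (-0.21) and MRPL17 (-0.20). MRPL42 was at 31.5 and 34.5 CPM at day 0 and 13.0 and 14.3 at day 9 in wild-type cells, and at 36.6 and 39 and then 10.8 and 10.6 in mutant cells. MRPL14 (uL14m) was at 25.0 and 17.4 CPM at day 9 in wild-type cells and at 16.2 and 17.5 in mutant cells. None of these 10 differences passed after adjustment.

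Mutant and wild-type cells compared at day 9 gave 0 MRPL genes by edgeR, where 0.222% of all genes were called, and 10 at an unadjusted p under 0.05 (21.3%, against 12% of all genes). DESeq2 called 2, MRPL33 (0.62, adjusted p = 0.0107) and MRPL50 (0.37, adjusted p = 0.0259), both higher in mutant cells. The share of all genes that DESeq2 called at day 9 is not given here, and 0.222% is that of edgeR. MRPL33 stood at 5.95 and 5.16 CPM at day 9 in wild-type and 7.62 and 9.29 in mutant cells, and at 32.9 and 30.7 against 39.5 and 37.0 at day 0, where the difference was not called. At day 0 no MRPL gene was called by edgeR (0 at an unadjusted p under 0.05) or DESeq2, where 0% of all genes were called by edgeR.

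Other genes of the mitochondrial ribosome were read from the same fit, where 8.7% of all genes fell in wild-type and 8.53% in mutant cells. Of 31 small subunit proteins 27 fell in each line, with medians of -1.18 and -1.06, against -0.94 and -0.86 for the MRPL genes. The largest falls in wild-type cells were MRPS33 (-3.34), MRPS9 (-3.21), MRPS17 (-3.03), MRPS11 (-2.64) and MRPS35 (-2.58). In mutant cells these 5 changed by -3.06, -3.24, -3.06, -2.56 and -2.37. MRPL22, the lowest of the MRPL genes, was at -2.69 in wild-type and -3.07 in mutant cells. Of 5 large subunit proteins that carry other names in the library, 3 fell in wild-type and 5 in mutant cells. ICT1 (now MRPL58), a peptidyl-tRNA hydrolase built into the subunit, changed by -1.58 ± 0.18 (SE) and -1.52 ± 0.18, MRPS18A by -1.24 and -0.96, and GADD45GIP1 by -0.96 and -0.65. MRP63 (-0.35, edgeR adjusted p = 0.0524) and MRPS30 (-0.23, adjusted p = 0.167) did not pass in wild-type cells and passed in mutant cells (-0.42 and -0.46).

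**Figure D5:**
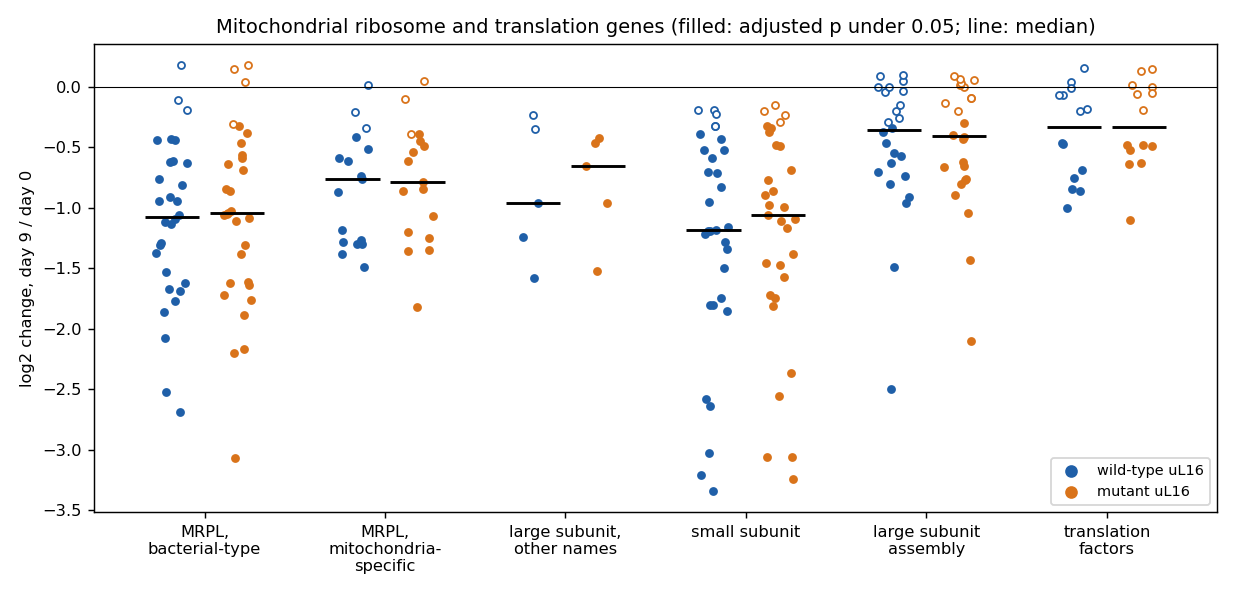
Log2 change from day 0 to day 9 of single genes (points; filled where the adjusted p was under 0.05; line, median) in 6 lists of mitochondrial ribosome and translation genes, in wild-type (blue) and mutant (orange) uL16 cells. The ribosomal protein lists hold mostly filled points with medians from -1.18 to -0.65, and the assembly and translation factor lists have medians from -0.40 to -0.33 with many open points near 0.

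Factors that build the large subunit or help it translate moved less uniformly. Of 24 assembly factors 13 fell in wild-type and 14 in mutant cells, beside 8.7% and 8.53% of all genes. The medians of these factors were -0.36 and -0.40. DHX30, an RNA helicase of mitochondrial RNA granules, changed by -2.50 ± 0.17 (SE) and -2.10 ± 0.17. NDUFAB1, the mitochondrial acyl carrier protein, which also serves fatty acid synthesis and complex I, changed by -1.49 and -1.43, PTCD1 by -0.96 and -0.89, the pseudouridine synthase RPUSD3 by -0.91 and -0.76, and MTERFD1 (now MTERF3) by -0.80 and -1.04. MRM1 (-0.29) did not pass in wild-type cells and passed in mutant cells (-0.43). GTPBP10, RNMTL1, WBSCR16, MTERFD2, FTSJ2, RPUSD4, SPG7, MTG2, DDX28 and TRUB2 passed in neither line, with changes from -0.26 to 0.10 in wild-type cells. Of 14 translation factors 7 fell in each line, beside the same shares of all genes, with medians of -0.33 and -0.33. LRPPRC, which binds and stabilises mitochondrial messenger RNAs, changed by -1.0 and -0.52. MTFMT, the formyltransferase of the initiator tRNA, changed by -0.86 and -0.64, TUFM, the elongation factor Tu, by -0.84 and -1.10, MTIF3 by -0.75 and -0.49, and MTRF1L by -0.69 and -0.48. None of the genes in these lists was called in the difference between the lines, where 0.0159% of all genes (3) were.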

How the data were processed

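The authors deposited unnormalized read counts, 1 value per sgRNA and library. Per the file headers, reads were trimmed to bases 1 to 39 and matched in the forward direction to a human CRISPRi v2 library. Per the submitters' processing notes, the build was hg38. The positions in the sgRNA names do not match GRCh38, however, and the sources used here do not name their build. They were used only for strand, relative order and distance between sgRNAs. The sources used here name no counting program. An sgRNA was kept at a mean count of at least 20 over the 8 libraries. Counts of first-promoter sgRNAs were summed per gene (at least 3 sgRNAs), normalized by TMM and tested in R 4.3.3 with edgeR 4.0.16 (quasi-likelihood, 1 mean per group, 4 residual degrees of freedom), with Benjamini-Hochberg adjustment over 18903 genes and a threshold of 0.05. Single sgRNAs were tested the same way. DESeq2 1.42.0 and limma 3.58.1 were alternatives, and the closing section gives their effect. The script was tested on simulated data. PCR reads carry no molecular identifiers, so depth sets counting error only.

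The MRPL genes, the lists of related genes, the role groups and the naming rule were set with earlier results of these data known. The rule names the 8 largest falls in each line, the genes that did not pass, the 5 largest differences between lines each way, genes whose sgRNAs disagree or lie near another gene, and up to 5 of each list. Groups were taken from the labels. Promoter windows come from RefSeq (GRCh38.p14).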

Additional observations from a re-analysis of the deposited data

How the results depend on the processing

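Every alternative kept the direction of the MRPL counts. Leaving out 1 library at a time gave 38 to 41 genes lower in wild-type cells and 36 to 40 in mutant cells, and 0 for the difference, day 0 and day 9 comparisons. The lowest wild-type count (38) came without wild-type day 0 replicate 2, and the lowest mutant count (36) without mutant day 0 replicate 1. Requiring a log2 change over 1 as well left 23 genes in wild-type and 23 in mutant cells. DESeq2 called 2 genes between the lines at day 9, where edgeR called 0. Limma on the average of the log2 CPM of each gene's sgRNAs gave 42 in each line. The shares of all genes called by DESeq2 and by limma are not given here. Leaving out shared sgRNAs, chosen after seeing the data, gave 38 and 37, with MRPL12 and MRPL30 not tested. For single genes, calls were lost in 8 gene and setting pairs in wild-type and 18 in mutant cells and gained in 1 and 5, and the causes were not tested. The genes that lost a call were MRPL4, MRPL21, MRPL38, MRPL48, MRPL49, MRPL52, MRPL53, MRPL54 and MRPL55, with changes between -0.51 and -0.22 in those fits.

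The deviations of day 0 and day 9 libraries with the same replicate number were compared over all genes. They correlated at 0.025 in wild-type and 0.048 in mutant cells. Such low values do not show whether these libraries were paired, because noise between libraries can hide a pairing. With the replicate number as a block within each line, 41, 40 and 0 genes were called for wild-type, mutant and the difference, as without it. This block could not be fitted for mutant against wild-type at day 0 or day 9. With 2 libraries per group, the precision is that of a median 95% interval of 0.36 on the log2 scale to either side of a difference between lines.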
